A study of Mus musculus with 6 samples.

Results

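The genes described here are 39 symbols chosen by name: the enzymes of glycolysis, genes for the handling of pyruvate and lactate, and genes known to respond to low oxygen. The choice was made with earlier results of these data known. They were found by symbol among the 54532 genes of the deposited expression table and fill 40 of its rows, since Aldoa is listed under 2 identifiers. Of these rows 37 passed the filter on low values and were tested. The 3 rows below the filter were Eno2, Aldoc and the second Aldoa row. Expression is given as FPKM, fragments per kilobase of gene on a scale common to all libraries, as the authors set it.

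The cells were primary brain microvascular endothelial cells (BMVECs), the lining of brain capillaries, grown from brain vessel fragments of wild-type C57BL/6J mice on collagen IV and fibronectin and held in puromycin at the start of the culture. In the untreated group (libraries A0, B0 and D0) the cells received nothing, and the labels give no time or vehicle for them. In the treated group (A24, D24 and E24) they received DEVD mIL-36β, a processed form of the mouse IL-1 family cytokine, at 100 ng/ml for 24 h. The labels do not say what the library letters stand for, nor if each library is from its own animal or culture. The p-values therefore cover only the spread among these 6 libraries, which may be technical. Letters A and B hold 2 untreated libraries and 1 IL-36β library (A0, B0 and A24), and letters D and E hold 1 and 2 (D0, D24 and E24).

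Glycolysis breaks glucose down to pyruvate in the cytosol, and endothelial cells draw much of their ATP from it. Hypoxia-inducible factors (HIFs) pair an oxygen-labile alpha subunit, such as the products of Hif1a and Epas1, with the stable partner Arnt. When oxygen is present, prolyl hydroxylases encoded by the Egln genes mark the alpha subunits for destruction. When it is scarce the complex binds promoters carrying ACGTG or GCGTG and raises glycolytic enzymes, lactate export, angiogenic factors and mitophagy genes, along with Egln3 itself as a feedback.

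The levels of these genes followed the letter of the library. Of the 37 tested, 23 were lower in D0, D24 and E24 than in A0, B0 and A24, and 0 were higher, in a limma model that also held treatment (adjusted p under 0.05). Over all 12618 genes tested, 1.24% were lower and 0.507% higher by the same rule, 1.74% in all. The median log2 difference of the members was -0.79, against 0.01 over all genes, and 36 of the 37 lay below 0. In 30 of the 37 every A or B library exceeded every D or E library, which held for 9.94% of all genes. Members made up 14.7% of the 156 genes that were lower, and 12 of the 100 lowest differences. Both the members and the letter split were chosen with earlier results of these data known. These counts, shares and p-values may therefore overstate the evidence and are not independent support. Within untreated cells the median of D0 against A0 and B0 was -0.70, and within IL-36β cells that of D24 and E24 against A24 was -0.83. The count moved with single libraries: it was 7 without D0, 10 without A24, and 13 without A0 or without B0. It was 12 with no filter on low values. The 23 genes stayed below 0 in each of these fits. In bulk RNA, fewer cells of a type and less RNA per cell cannot be told apart.

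**Figure D1:**
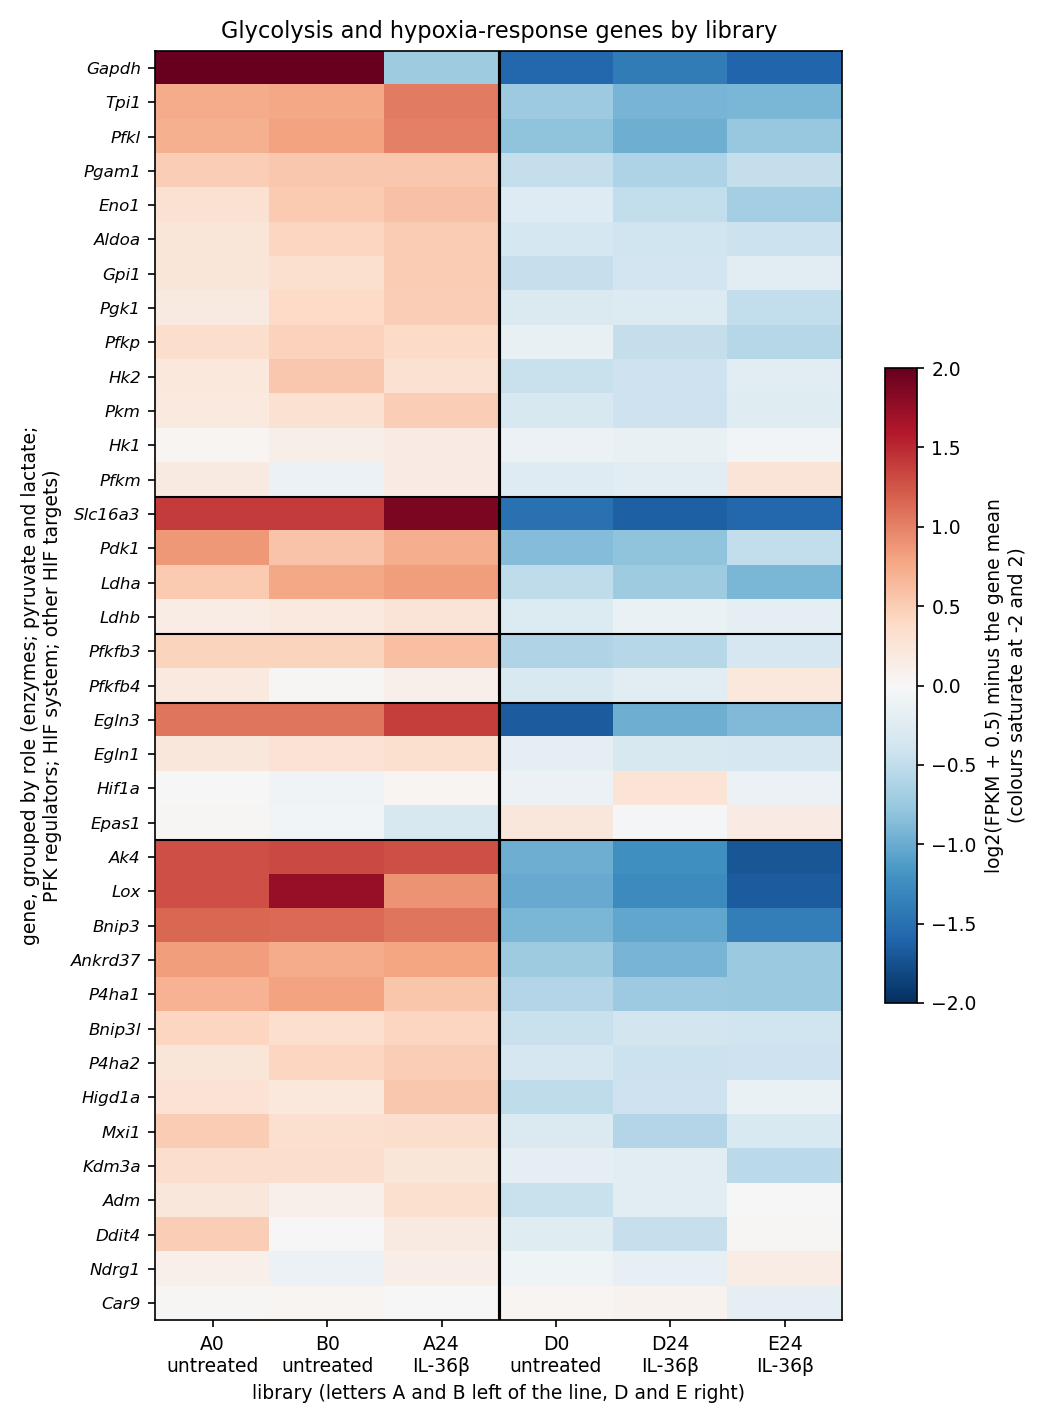
Log2(FPKM + 0.5) of the 37 tested genes (rows, by role) in each of the 6 libraries (columns), shown as the deviation from the gene's mean, with colours saturating at -2 and 2. The 3 libraries lettered A and B (left of the line) are above the mean and the 3 lettered D and E below it for most rows, and the IL-36β library A24 resembles A0 and B0 in all but a few rows, Gapdh among them.

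The gene with the lowest p of all 12618 between the letter sets was Slc16a3 (ENSMUSG00000025161, chr11:120948480-120960868, plus strand, GRCm38), which encodes the lactate exporter of glycolytic cells. It stood at 20.9, 20.8 and 29.2 FPKM in A0, B0 and A24 and at 2.38, 2.10 and 2.23 in D0, D24 and E24. The sets did not overlap, and A24 was the highest library. The level was 9.08-fold higher in A and B (95% confidence interval 7.17 to 11.5, adjusted p = 0.000703) on the log2(FPKM + 0.5) scale, on which all folds here are given.

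Egln3 (ENSMUSG00000035105, chr12:54178981-54203860, minus strand), a HIF prolyl hydroxylase that HIF itself induces, had the next lowest p. Its levels were 32.4, 32.6 and 40.7 FPKM in A0, B0 and A24 and 4.45, 7.47 and 8.08 in D0, D24 and E24. Among D and E the untreated library was the lowest. The difference was 5.77-fold (4.75 to 6.99, adjusted p = 0.000703). Egln1, the main oxygen sensor of this family, ran from 33.8 to 36.4 FPKM in A and B and from 22.8 to 25.6 in D and E, a 1.46-fold difference (1.25 to 1.69, adjusted p = 0.0427).

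The transcripts of the HIF alpha subunits did not follow this pattern. Hif1a (chr12:73901375-73947530) stood at 44.7, 43.0 and 46.0 FPKM in A0, B0 and A24 and at 41.5, 54.7 and 41.5 in D0, D24 and E24. Its sets overlapped, and the log2 difference was -0.01 (adjusted p = 0.969). Epas1 (chr17:86753907-86833410), which encodes the alpha subunit most abundant in endothelium, stood at 210, 198 and 165 FPKM in A and B and at 242, 201 and 231 in D and E. It was the only member with a difference above 0 (log2 0.31, adjusted p = 0.200), and its sets overlapped as well. HIF is controlled mainly through protein stability, which these libraries do not measure.

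Among the other HIF targets 9 of 14 were lower in D and E. Ak4 (chr4:101419277-101466995), a mitochondrial adenylate kinase, stood at 20.6, 20.9 and 20.6 FPKM in A0, B0 and A24 and at 3.88, 3.17 and 2.12 in D0, D24 and E24. The A and B libraries were nearly level and 5.74-fold above the others (4.33 to 7.61, adjusted p = 0.00191). Bnip3 (chr7:138890836-138909519), a mitophagy receptor on the outer mitochondrial membrane, stood at 52.9, 52.3 and 50.5 FPKM and at 12.3, 11.2 and 8.81 in the same order. Its fold was 4.49 (3.68 to 5.48, adjusted p = 0.00152), with no overlap.

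Lox (lysyl oxidase, which crosslinks collagen and elastin) was more variable within the A and B libraries. It stood at 41.2, 56.3 and 31.2 FPKM in A0, B0 and A24 and at 8.004, 6.56 and 4.89 in D0, D24 and E24. The sets did not overlap, and the fold was 5.42 (4.14 to 7.10, adjusted p = 0.00191). Ankrd37, an ankyrin-repeat protein induced by hypoxia, ran from 24.96 to 26.7 FPKM in A and B and from 7.55 to 8.83 in D and E (2.95-fold, 2.51 to 3.47, adjusted p = 0.00191).

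P4ha1 and P4ha2 encode catalytic subunits of the collagen prolyl hydroxylase. P4ha1 ran from 66.3 to 78.7 FPKM in A and B and from 26.6 to 29.9 in D and E (2.48-fold, adjusted p = 0.00191). P4ha2 differed by 1.74-fold (adjusted p = 0.0168). Bnip3l, the paralogue of Bnip3, differed by 1.77-fold (adjusted p = 0.00860), the hypoxia-induced mitochondrial protein gene Higd1a by 1.73-fold (adjusted p = 0.0203), and the Myc antagonist gene Mxi1 by 1.68-fold (adjusted p = 0.0440). In all 5 of these genes the sets did not overlap.

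The 5 remaining targets did not pass. Adm, which encodes the vasodilator peptide adrenomedullin, was the most abundant of all members by mean FPKM over the 6 libraries, at 687, 629 and 734 FPKM in A0, B0 and A24 and 433, 509 and 588 in D0, D24 and E24. Its sets did not overlap, with a fold of 1.43 (1.18 to 1.73, adjusted p = 0.0913). The histone demethylase gene Kdm3a had a log2 difference of -0.59 (adjusted p = 0.0715), and the mTOR inhibitor gene Ddit4 one of -0.45 (adjusted p = 0.296). Ndrg1, a stress-response gene, had one of -0.11 (adjusted p = 0.729), with levels of 11.6 to 14.3 FPKM over the 6 libraries. Car9, a carbonic anhydrase gene often used as a hypoxia marker, was near the filter at 0.620 to 0.845 FPKM and had a difference of -0.03 (adjusted p = 0.959).

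**Figure D2:**
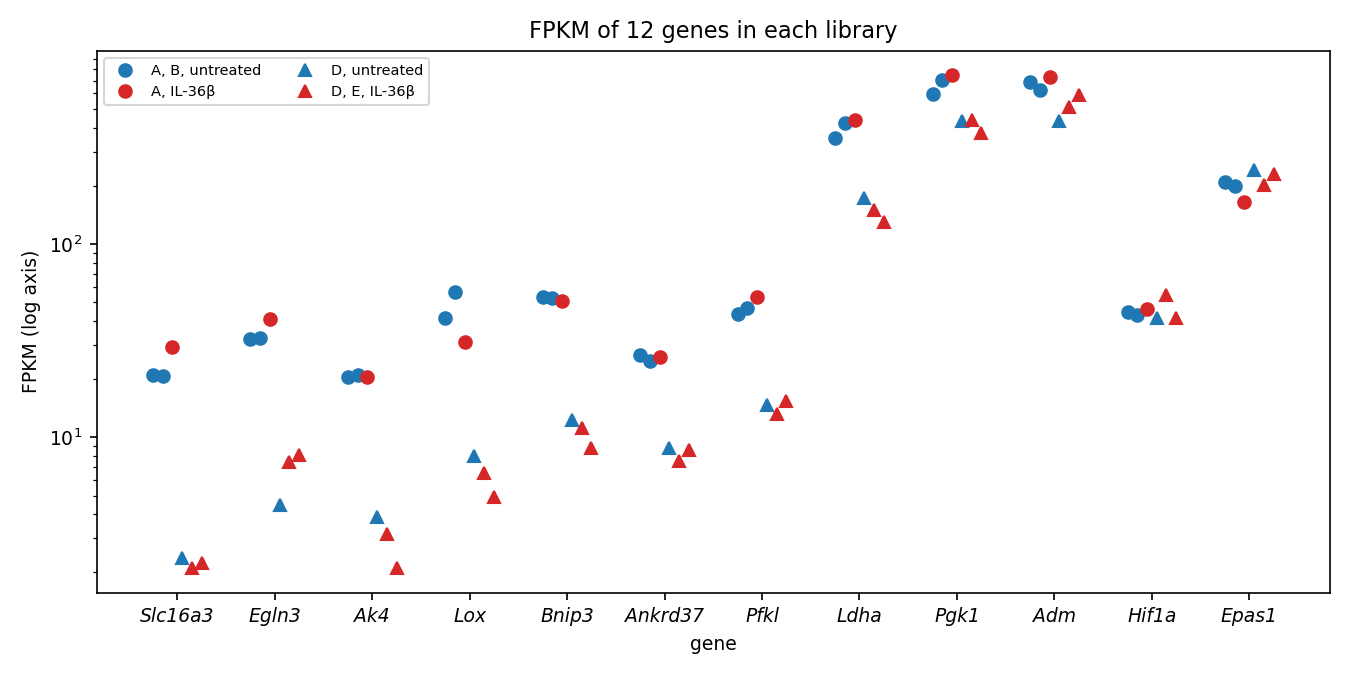
FPKM (log axis) of 12 genes in each library, with circles for letters A and B, triangles for D and E, blue for untreated and red for IL-36β. Slc16a3, Egln3, Ak4, Lox, Bnip3, Ankrd37, Pfkl and Ldha separate circles from triangles widely, Pgk1 and Adm narrowly, and Hif1a and Epas1 overlap.

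Of the 13 glycolytic enzymes tested 8 were lower in D and E, and all 13 had a difference below 0. Their summed FPKM was 2571, 2846 and 3051 in A0, B0 and A24 and 1646, 1558 and 1538 in D0, D24 and E24, so the sets were apart. The sum was 0.946 to 1.04% of all FPKM in A and B and 0.519 to 0.586% in D and E. In contrast, the summed FPKM of the 4 HIF subunit and hydroxylase genes, in which Epas1 is the largest term, ran from 289 to 321 in A and B and from 286 to 314 in D and E.

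At the entry of the pathway the hexokinases, which trap glucose as its phosphate, did not pass. Hk1 ran from 66.5 to 72.3 FPKM in A and B and from 58.0 to 61.9 in D and E (log2 -0.23, adjusted p = 0.259). Hk2, the inducible form, was low at 0.654 to 1.79 FPKM over the 6 libraries (log2 -0.72, adjusted p = 0.105). Gpi1, the isomerase of the next step, ran from 78.5 to 94.5 FPKM in A and B and from 48.4 to 57.2 in D and E (1.70-fold, 1.47 to 1.98, adjusted p = 0.0135).

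Phosphofructokinase commits sugar to glycolysis, and its 3 genes behaved unequally. Pfkl (chr10:77986947-78010083) stood at 43.4, 46.4 and 53.4 FPKM in A0, B0 and A24 and at 14.7, 13.2 and 15.4 in D0, D24 and E24. No library of one set reached the other, and the fold was 3.30 (2.74 to 3.97, adjusted p = 0.00191). Pfkp differed by 1.65-fold (adjusted p = 0.0364), while Pfkm, at 6.37 to 9.35 FPKM, overlapped between the sets (log2 -0.23, adjusted p = 0.559). Pfkfb3, which makes the main allosteric activator of phosphofructokinase, ran from 30.4 to 33.9 FPKM in A and B and from 14.5 to 17.6 in D and E (2.07-fold, 1.76 to 2.43, adjusted p = 0.00674). Its paralogue Pfkfb4, at 0.293 to 0.632 FPKM, did not pass (log2 -0.26, adjusted p = 0.603).

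Below phosphofructokinase, Tpi1 (chr6:124810586-124814296), the triose phosphate isomerase, differed most among the called enzymes. It stood at 192, 198 and 238 FPKM in A0, B0 and A24 and at 69.6, 60.3 and 60.6 in D0, D24 and E24. The fold was 3.30 (2.69 to 4.05, adjusted p = 0.00252), with no overlap. Pgam1, the mutase that moves the phosphate group, ran from 252 to 261 FPKM in A and B and from 117 to 129 in D and E (2.05-fold, adjusted p = 0.00578).

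The remaining enzymes were abundant and differed by less. The main Aldoa row (aldolase) ran from 461 to 550 FPKM in A and B and from 289 to 305 in D and E (1.74-fold, adjusted p = 0.0204). Eno1 (enolase) ran from 337 to 408 and from 170 to 228 (1.89-fold, adjusted p = 0.0350), and Pkm (pyruvate kinase) from 491 to 607 and from 322 to 363 (1.62-fold, adjusted p = 0.0390). Pgk1, the phosphoglycerate kinase and by mean FPKM the most abundant enzyme, ran from 599 to 744 and from 375 to 437, without overlap. Its fold was 1.66 (1.33 to 2.06) and did not pass (adjusted p = 0.0541). Eno2, at 0.297 to 0.671 FPKM, and the second Aldoa row, with 2 to 10 reads a library, were not tested. Aldoc had 0 to 4 reads and was listed at 0 in B0, D24 and E24.

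Gapdh, the glyceraldehyde phosphate dehydrogenase, behaved unlike the other enzymes. It stood at 30.5 and 25.2 FPKM in A0 and B0 but at 2.28 in A24, and at 1.04, 1.24 and 1.01 in D0, D24 and E24. So A0 and B0 were high, and A24, which is high for most other enzymes, lay nearer to the D and E libraries. The set difference was log2 -2.49 (-4.08 to -0.90, adjusted p = 0.142), and the interaction of treatment and set was 3.42 (adjusted p = 0.101). Its levels rest on 2048, 2107 and 146 reads in A0, B0 and A24 and 66, 84 and 76 in D0, D24 and E24, below those of Pgk1, which had 14950 to 31867. Gapdh has many near-identical copies in the mouse genome and no source at hand states how reads shared with copies were counted, so its level is uncertain. The 5 rows named as its pseudogenes held 0 to 3 reads a library in all. Rows named as pseudogenes of Ldha, Tpi1 and Pgam1 held 10 to 42, 14 to 93 and 40 to 151 reads, against at least 7832, 2730 and 3510 for the genes themselves.

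Genes that route pyruvate to lactate were 3 of 4 lower in D and E. Ldha (chr7:46841475-46855627), the lactate dehydrogenase subunit that favours lactate formation, stood at 353, 421 and 436 FPKM in A0, B0 and A24 and at 173, 150 and 130 in D0, D24 and E24. The sets did not overlap and the fold was 2.63 (2.06 to 3.36, adjusted p = 0.0103). Pdk1, a kinase that keeps pyruvate from oxidation in mitochondria, ran from 7.72 to 9.62 FPKM in A and B and from 2.55 to 3.44 in D and E (2.80-fold, 2.21 to 3.54, adjusted p = 0.00781). Ldhb, the other lactate dehydrogenase subunit, ran from 15.1 to 16.2 and from 11.1 to 12.3 and did not pass (1.35-fold, adjusted p = 0.0637).

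Fitted on whole reads recovered from the FPKM values, edgeR and DESeq2 each called 28 of the 37 lower in D and E, against 2.2% and 3.04% of all genes. Both added Adm, Gapdh, Hk2, Kdm3a and Pgk1 to the 23 genes called by limma. At an unadjusted p under 0.05, limma counted 32 of the 37, against 16.0% of all genes.

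Promoter sequences are shown for the 6 genes with the largest differences among those limma called between the sets that have an entry (Slc16a3, Egln3, Ak4, Bnip3, Tpi1, Pfkl), and for Hif1a as a member that did not differ. Each is the 250 bases before the first RefSeq start (GRCm38.p6), 5′ to 3′ on the gene's strand. Capitals mark ACGTG or GCGTG on either strand, so that CACGT and CACGC are the same letters read from the other strand, and overlapping matches run together as CACGTG.
Slc16a3 (chr11:120948817-120949066, plus strand): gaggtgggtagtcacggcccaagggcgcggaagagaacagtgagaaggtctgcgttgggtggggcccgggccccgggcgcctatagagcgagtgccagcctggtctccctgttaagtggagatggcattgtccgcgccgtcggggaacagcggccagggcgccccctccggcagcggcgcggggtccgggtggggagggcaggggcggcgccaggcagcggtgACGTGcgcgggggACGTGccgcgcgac
Egln3 (chr12:54203875-54204124, minus strand): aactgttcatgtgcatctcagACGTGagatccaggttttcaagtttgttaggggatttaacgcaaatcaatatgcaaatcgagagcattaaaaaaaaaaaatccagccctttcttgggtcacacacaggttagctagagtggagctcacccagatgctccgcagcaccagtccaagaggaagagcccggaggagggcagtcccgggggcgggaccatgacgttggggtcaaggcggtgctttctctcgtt
Ak4 (chr4:101419039-101419288, plus strand): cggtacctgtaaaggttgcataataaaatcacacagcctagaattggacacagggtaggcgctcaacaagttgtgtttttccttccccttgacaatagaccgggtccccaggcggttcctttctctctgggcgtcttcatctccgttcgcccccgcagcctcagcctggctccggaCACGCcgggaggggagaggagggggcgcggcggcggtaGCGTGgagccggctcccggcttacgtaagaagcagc
Bnip3 (chr7:138909507-138909756, minus strand): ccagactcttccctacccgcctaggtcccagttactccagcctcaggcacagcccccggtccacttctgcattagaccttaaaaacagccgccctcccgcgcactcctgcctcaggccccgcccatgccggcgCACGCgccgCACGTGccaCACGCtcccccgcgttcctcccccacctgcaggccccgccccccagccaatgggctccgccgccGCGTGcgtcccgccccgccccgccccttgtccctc
Tpi1 (chr6:124814159-124814408, minus strand): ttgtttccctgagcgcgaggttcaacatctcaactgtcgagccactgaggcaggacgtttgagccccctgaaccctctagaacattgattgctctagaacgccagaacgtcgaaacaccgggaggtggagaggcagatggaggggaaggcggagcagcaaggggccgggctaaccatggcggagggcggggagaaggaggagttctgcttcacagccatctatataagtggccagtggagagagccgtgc
Pfkl (chr10:78009808-78010057, minus strand): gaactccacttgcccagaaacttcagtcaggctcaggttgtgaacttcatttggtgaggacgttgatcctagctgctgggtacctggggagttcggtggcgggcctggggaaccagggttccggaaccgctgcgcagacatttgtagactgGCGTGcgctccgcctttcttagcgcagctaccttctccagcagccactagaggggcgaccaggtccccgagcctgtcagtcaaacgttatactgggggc
Hif1a (chr12:73907617-73907866, plus strand): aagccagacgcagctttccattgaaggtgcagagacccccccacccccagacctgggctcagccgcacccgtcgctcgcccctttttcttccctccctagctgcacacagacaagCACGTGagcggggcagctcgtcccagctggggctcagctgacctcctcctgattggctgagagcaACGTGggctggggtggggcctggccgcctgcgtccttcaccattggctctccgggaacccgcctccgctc

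Slc16a3 held 2 matches, Egln3 1, Ak4 2, Bnip3 5, Pfkl 1, Hif1a 3 and Tpi1 0. Of the 35 members with an entry 28 (80.0%) held at least 1 match in this window, compared with 38.6% of 27025 symbols. Among the members lower in D and E it was 16 of 21 (76.2%), and among the other members 12 of 14 (85.7%). The letters were common both among members that limma called and among those it did not call. The latter include Adm, Gapdh, Hk2, Kdm3a and Pgk1, called lower by edgeR and DESeq2, and the untested Aldoc and Eno2. They are therefore not a set of genes without a difference. A match is a description of the sequence and not a binding site, and the windows were not matched on base composition. Entries for Lox, Bnip3l, Epas1 and Ndrg1 were not used here.

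FPKM is per length, so the members of a family can be set against each other. The make-up of some families differed between the sets, on the same FPKM values as above. Pfkl made up 71.6, 74.3 and 75.6% of summed phosphofructokinase FPKM in A0, B0 and A24 and 54.9, 54.5 and 53.3% in D0, D24 and E24. Over the same libraries the Egln3 share of Egln1 and Egln3 was 48.9, 48.0 and 52.8% and then 14.8, 24.6 and 26.2%. These shares of A and B lay apart from those of D and E, with an exact permutation p of 0.1, two-sided, which is the smallest that 3 against 3 can give.

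Bnip3 was 57.9, 59.3 and 56.8% of the sum with Bnip3l in A0, B0 and A24, and 37.5, 34.0 and 29.2% in D0, D24 and E24. P4ha1 was 72.0 to 77.2% of the sum with P4ha2 in A and B and 66.4 to 67.7% in D and E. Ldha was 95.9 to 96.4% of the lactate dehydrogenase sum in A and B and 91.7 to 94.0% in D and E. Each had an exact permutation p of 0.1, again the smallest possible. The Hif1a share of Hif1a and Epas1 overlapped, at 17.6 to 21.8% and 14.6 to 21.4% (exact permutation p = 0.5). The shares within Aldoa and Aldoc, Eno1 and Eno2, and Pfkfb3 and Pfkfb4 overlapped too (exact permutation p = 0.4, 0.6 and 0.2). Those within Hk1 and Hk2 did not (exact permutation p = 0.1).

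**Figure D3:**
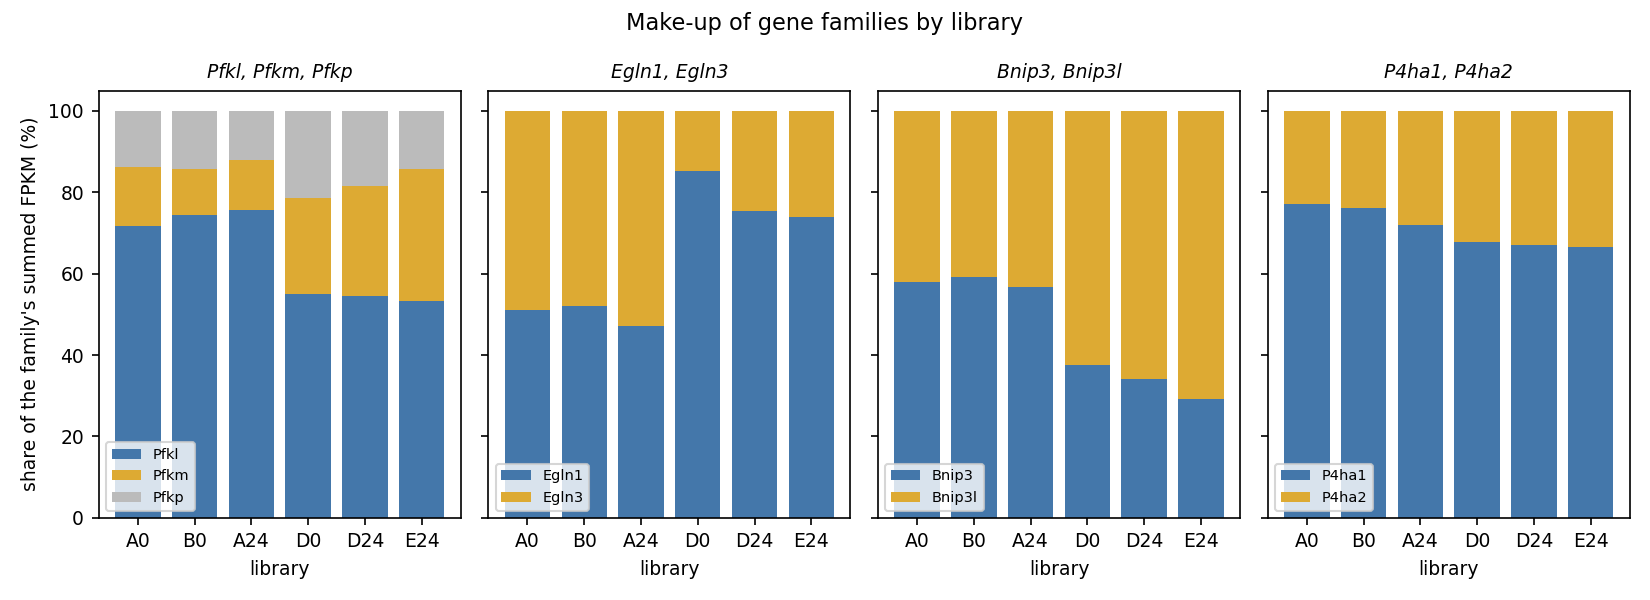
Share of each paralogue in the summed FPKM of the members of its family (percent, stacked bars) in each library. The families are the phosphofructokinase, Egln, Bnip3 and P4ha genes, with Egln1 and Egln3 alone for Egln. Egln2, which is not a member, was left out of the sum. The Egln3 share is 48.0 to 52.8% in A0, B0 and A24 and 14.8 to 26.2% in D0, D24 and E24, and the Pfkl, Bnip3 and P4ha1 shares are also lower in the last 3.

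Other genes of the same pathways were read from lists of 94 symbols, of which 76 were tested. Of these, 17 were lower in D and E and 0 higher by limma, and edgeR and DESeq2 called 19 and 21 lower. Over all genes the shares called lower were 1.24%, 2.2% and 3.04%, and they apply to each list below as well. Among HIF system genes and further targets 11 of 35 were lower. The angiogenic factor Vegfa stood at 6.16, 7.14 and 5.86 FPKM in A0, B0 and A24 and at 1.68, 1.31 and 1.62 in D0, D24 and E24, a 3.26-fold difference without overlap (adjusted p = 0.00259). The secreted glycoprotein gene Stc2 (log2 -1.32, adjusted p = 0.0121), the mitochondrial protein gene Fam162a (-1.26, adjusted p = 0.00367) and the prelamin-binding protein gene Narf (-1.001, adjusted p = 0.0111) were lower as well. Arnt, the HIF partner subunit, ran from 7.33 to 8.54 FPKM over the 6 libraries and did not pass (log2 0.05, adjusted p = 0.843).

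Among other genes of glycolysis, gluconeogenesis and glycogen 4 of 17 were lower. These were Pgm2, Gbe1, Slc2a1 and Gys1. Slc2a1, the glucose transporter of the blood-brain barrier, stood at 359, 377 and 321 FPKM in A0, B0 and A24 and at 215, 170 and 188 in D0, D24 and E24 (1.75-fold, adjusted p = 0.0131). Among genes of pyruvate and lactate transport and oxidation 2 of 16 were lower, Pdk4 (log2 -0.81, adjusted p = 0.0367) and the monocarboxylate transporter chaperone gene Bsg (-0.60, adjusted p = 0.0307).

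In the pentose phosphate pathway, which branches from glycolysis at its first intermediate, limma called 0 of 8, and edgeR and DESeq2 each called 1, Pgd, lower. Limma counted 2 of the 8 at an unadjusted p under 0.05, where the share over all genes was 16.0%. The median log2 difference of its genes was -0.09, against -0.79 for the members. The genes with the largest differences were Pgd (-0.41, adjusted p = 0.0866) and Pgls (0.30, adjusted p = 0.466).

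Markers of other cells and library measures moved with the letters in part. Endothelial markers were high in all libraries, with summed FPKM of 2549 to 2863 in A and B and 2476 to 3236 in D and E. Their limma differences between the sets lay below 0 in 9 of 12 and above 0 in 3, with a median log2 of -0.06. Limma and edgeR each called 0 of the 12, and DESeq2 called 1, Kdr, higher in D and E. At an unadjusted p under 0.05, limma and edgeR counted 4 each, and the limma share over all genes was 16.0%. Pericyte and smooth muscle markers summed to 377 to 745 and 537 to 1401 FPKM, and 1 of 8 tested, Tagln, was higher in D and E (log2 1.30, adjusted p = 0.0168), while edgeR called Acta2 higher as well. The neuron list summed to 5.22 to 6.57 and 13.5 to 24.2 FPKM, nearly all of it Tubb3 (log2 1.39, adjusted p = 0.0168), with Snap25 at 0 in all libraries. The fibroblast list summed to 0.724 to 0.951 and 1.54 to 3.56, the astrocyte list to 1.07 to 1.75 and 0.432 to 0.931 with Aqp4 and Slc1a3 at 0. In these 2 lists edgeR and DESeq2 called Col1a2 (fibroblast) higher and Aldh1l1 (astrocyte) lower in D and E, while limma called neither. The microglia and oligodendrocyte lists summed to at most 0.356. Both hemoglobin markers were at 0. Libraries had 15180389 to 19544689 reads, genes with a read numbered 18854 to 19943 in A and B and 18041 to 18616 in D and E, and mitochondrial genes took 1.13 to 1.28% and 0.870 to 1.17% of reads. The part of these in the set difference was not tested.

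The study's own comparison asked what IL-36β did to these cells after 24 h. For the members limma called 0 of 37 in either direction, with 0 at an unadjusted p under 0.05. Of all genes 0.182% passed, and 10.4% had an unadjusted p under 0.05. edgeR and DESeq2 also called 0 at an adjusted p under 0.05, against 0.293% and 2.06% of all genes. At an unadjusted p under 0.05 they counted 1 member each, for which the share over all genes is not given here. In none of the 37 were the IL-36β and untreated libraries apart, while in 16.2% of all genes they were. In 30 of the 37 they could not be, since every A or B library exceeded every D or E library. The 2 shares therefore cannot be compared as a measure of the response to IL-36β. The median log2 difference was -0.22, against 0.00 over all genes, and 32 of 37 lay below 0. With the letter set as a term the median was 0.04, with 16 below and 21 above 0. In that model 0 of 37 were called, against 0.808% of all genes. At an unadjusted p under 0.05 it counted 4 members, again without a share over all genes here. Within A and B the median of A24 against A0 and B0 was 0.07, and within D and E that of D24 and E24 against D0 was -0.06.

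**Figure D4:**
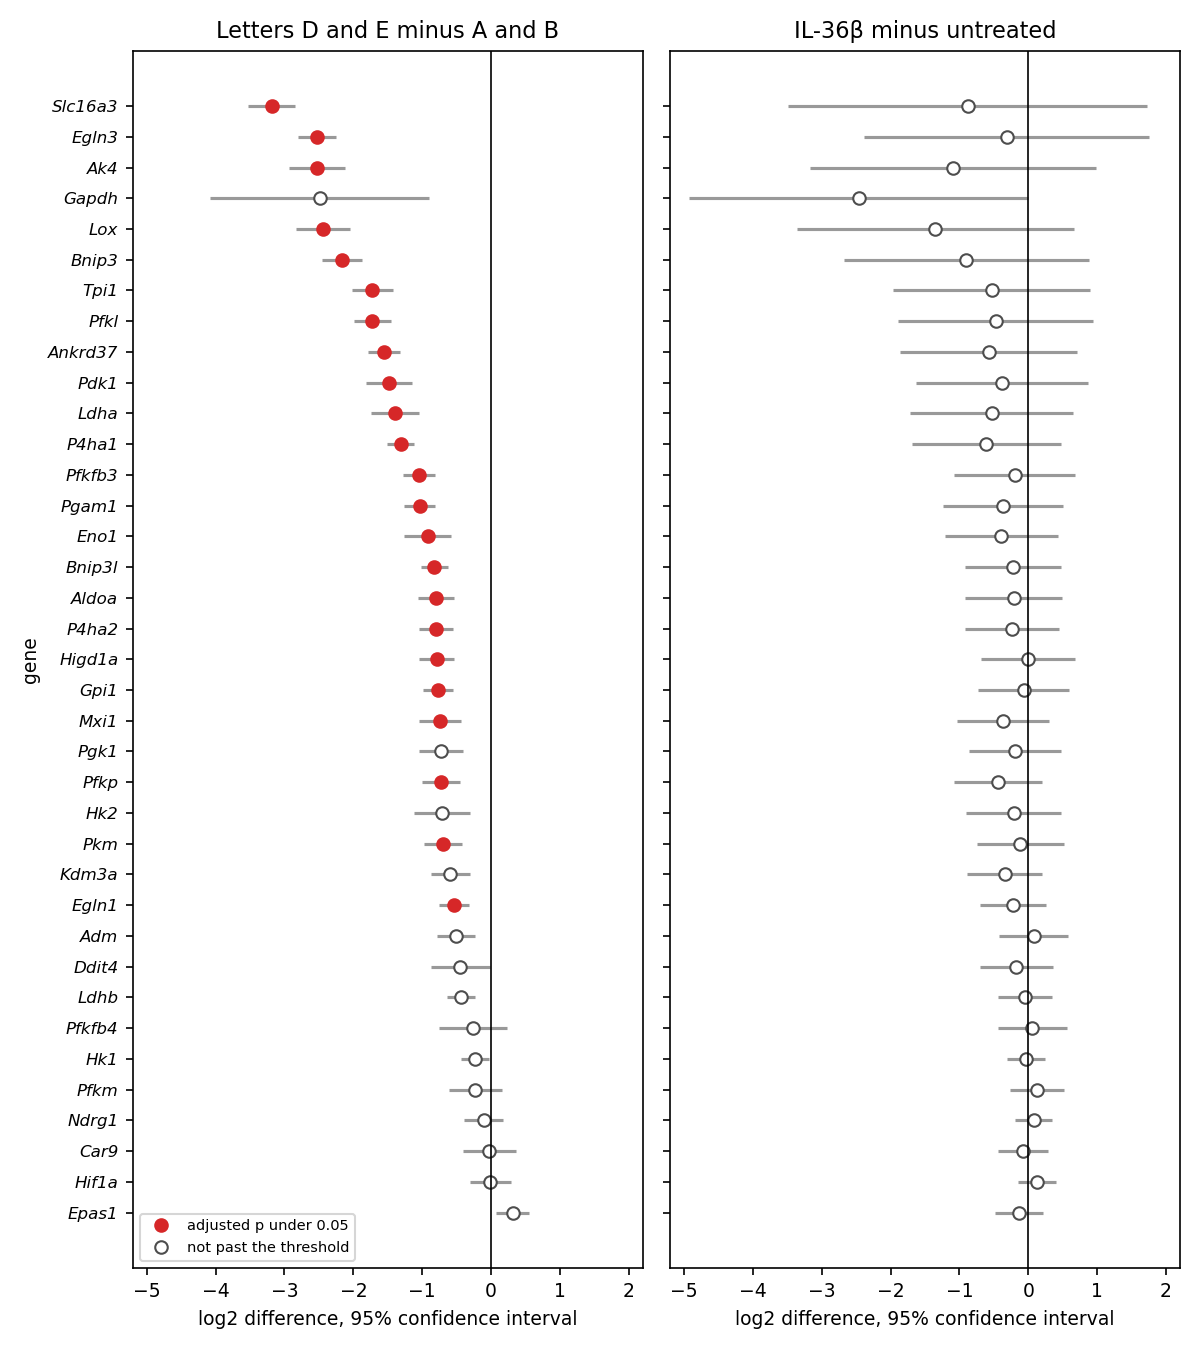
Log2 difference of each of the 37 genes with its 95% confidence interval, for letters D and E minus A and B (left, model with treatment) and for IL-36β minus untreated (right, model without the set), with filled points for adjusted p under 0.05. The left panel has 23 filled points, all below 0, and the right panel has 0, with wide intervals for the genes that differ most between the sets.

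Cell type markers were compared by treatment as well. Endothelial markers summed to 2476 to 2863 FPKM in untreated and 2583 to 3236 in IL-36β cells, and pericyte and smooth muscle markers to 424 to 1401 and 377 to 830. Limma and edgeR called 0 of the 12 and 0 of the 8 (at an unadjusted p under 0.05, limma 2 and 2, edgeR 3 and 2). DESeq2 called the endothelial Cldn5 higher and the smooth muscle genes Cnn1 and Myh11 lower with IL-36β. Over all genes 10.4% had a limma unadjusted p under 0.05, and DESeq2 called 2.06%. Their part in the treatment values was not tested.

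The intervals of the treatment comparison were wide where the letters differed most. Slc16a3 averaged 14.7 ± 10.7 FPKM (SD, n = 3) in untreated and 11.2 ± 15.6 (SD, n = 3) in IL-36β cells, with a log2 difference of -0.88 (-3.48 to 1.72, adjusted p = 0.802). With the set as a term it was 0.18 (-0.16 to 0.52, adjusted p = 0.609). The 2 models therefore gave opposite signs, and neither value passed.

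Egln3 likewise had a difference of -0.31 (-2.38 to 1.76, adjusted p = 0.918) without the set and 0.53 (0.25 to 0.81, adjusted p = 0.134) with it, the lowest adjusted p of any member in that model. It was higher with IL-36β within both sets, by 0.32 in A and B and by 0.74 in D and E, on values of 1 library against 2. Lox had a difference of -1.35 (-3.36 to 0.66, adjusted p = 0.605) without the set and -0.54 (-0.93 to -0.15, adjusted p = 0.241) with it.

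Ak4 (log2 -1.10, -3.18 to 0.98, adjusted p = 0.688) and Bnip3 (-0.90, -2.68 to 0.88, adjusted p = 0.699) had wide intervals as well. Those of Hif1a, Epas1, Adm and Pgk1 were narrower. Hif1a had a difference of 0.13 (-0.14 to 0.40, adjusted p = 0.723), Epas1 of -0.13 (-0.48 to 0.22, adjusted p = 0.780) and Adm of 0.08 (-0.43 to 0.58, adjusted p = 0.917). Pgk1 had one of -0.19 (-0.86 to 0.48, adjusted p = 0.831).

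Gapdh had the largest treatment difference of the members, with 18.9 ± 15.7 FPKM (SD, n = 3) in untreated and 1.51 ± 0.675 (SD, n = 3) in IL-36β cells. The log2 difference was -2.46 (-4.93 to 0.00, adjusted p = 0.482). The untreated library D0 lay at the level of the IL-36β libraries, and without it the difference was -3.86 and passed (adjusted p = 0.0138). The authors' deposited table of 660 genes lists Gapdh with a log2 fold change of -2.84, p = 0.0055 and an adjusted p of 0.9987. The same deposited table lists Eno2 with a log2 fold change of 1.31 and the same adjusted value, and no other member. The deposited FPKM of Eno2 was 0.430 ± 0.110 (SD, n = 3) in untreated and 0.463 ± 0.190 (SD, n = 3) in IL-36β cells, from 105 and 108 reads in all. The listed change therefore does not match the levels in these 6 libraries. The authors' table also holds columns of 4 unlabelled libraries, and which libraries its comparison used was not established here. Its Gapdh and Eno2 values may thus rest on another set of libraries.

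**Figure D5:**
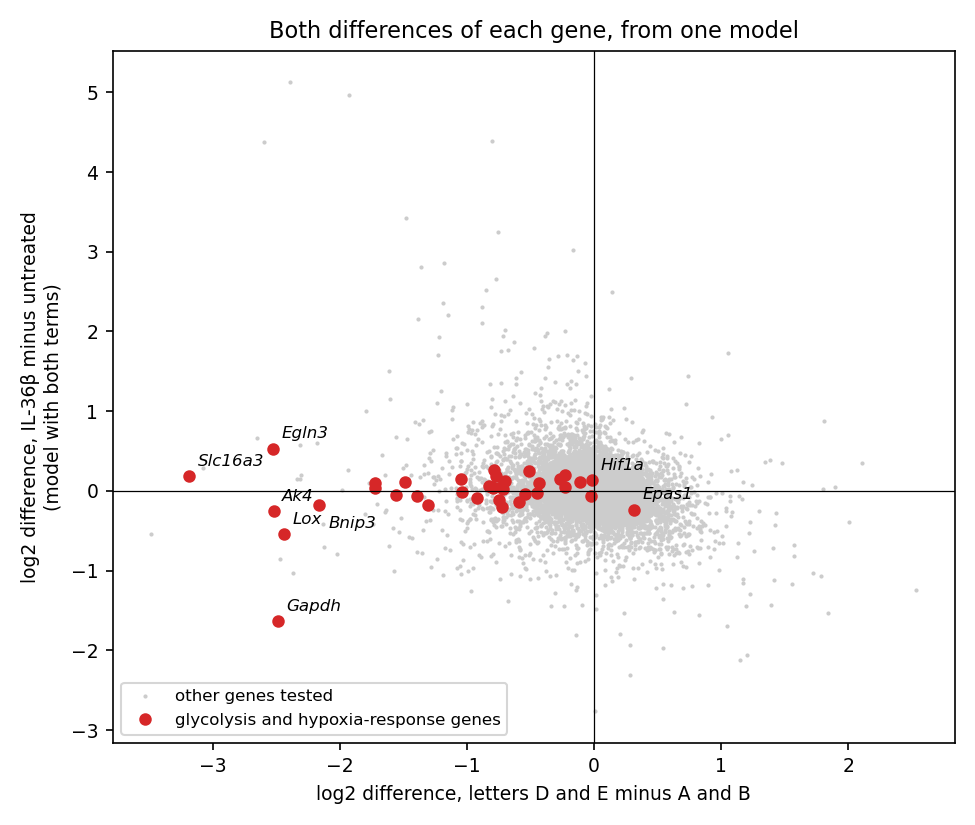
Log2 difference between letters D and E and letters A and B (x axis) against that between IL-36β and untreated (y axis) for 12618 genes (grey) and the 37 members (red), both from 1 model with both terms. The members lie mostly left of 0 and near 0 on the y axis, with Gapdh at -2.49 and -1.64 apart from the rest.

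Of the 76 further pathway genes limma called 0 with IL-36β (9 at an unadjusted p under 0.05), edgeR 0 (11) and DESeq2 2, Rab20 and Angptl4, both higher. The limma share at an unadjusted p under 0.05 over all genes was the 10.4% given above, and DESeq2 called 2.06% of all genes. The limma count of 9 and the DESeq2 count of 2 were thus near the background. For the edgeR count of 11 the share over all genes is not given here. Rab20, a small GTPase gene known as a HIF target, stood at 3.10, 3.37 and 2.48 FPKM in A0, B0 and D0 and at 7.59, 5.90 and 5.61 in A24, D24 and E24. The groups did not overlap, with a log2 difference of 0.98 (0.62 to 1.34, adjusted p = 0.0904). With the set as a term it was 1.09 and passed (adjusted p = 0.00925). Angptl4, a secreted inhibitor of lipoprotein lipase, stood at 344, 267 and 161 FPKM in the untreated libraries and at 573, 344 and 570 in the treated ones, a difference of 0.97 (0.25 to 1.70, adjusted p = 0.362).

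The other lists gave smaller values. The largest differences in the glycolysis list were Pgam2 (log2 -0.69, adjusted p = 0.154) and Slc2a1 (-0.50, adjusted p = 0.592), and in the list of pyruvate and lactate transport and oxidation Pdk4 (-0.64, adjusted p = 0.533) and Pdpr (-0.24, adjusted p = 0.625). In the pentose phosphate pathway 7 of 8 genes lay above 0, led by Taldo1 (0.36, adjusted p = 0.433) and Pgls (0.34, adjusted p = 0.579), with a median of 0.22.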

How the data were processed

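Poly(A) RNA was sequenced with a stranded kit in 6 libraries (3 untreated, 3 IL-36β), per the labels' protocols, and grouped by title. Tools listed in the submitters' processing notes, without roles, are HISAT2 2.05, featureCounts 1.50-p3, StringTie 1.3.3b56, fastp and DESeq2 1.38.3, with the build GRCm38. Whether strand was used in counting is not stated there. Of the deposited tables, one gives the authors' FPKM for 54532 genes. Their second table holds 660 genes with deposited counts, log2 fold changes and p-values, and only its rows for members were printed. The 8 columns of 4 unlabelled libraries in that second table were not used. FPKM times length gave whole reads in 100% of values (tolerance 0.01), equal to the deposited count in all 660 genes with both, at 15.4 to 20.3 reads per FPKM at 1 kb.

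Values were tested with limma 3.58.1 under R 4.3.3, trended and two-sided, on log2(FPKM + 0.5), for 12618 genes with FPKM of at least 0.5 in at least 3 libraries, Benjamini-Hochberg adjusted over all of them (threshold 0.05). Such folds understate changes of low genes. The letter sets were tested with treatment as a term. Alternatives were other pseudocounts, filters and scalings, edgeR 4.0.16 and DESeq2 1.42.0 on the recovered reads, blocks, and leaving out libraries. The test was also run on simulated data. For the treatment comparison those data held no difference between the letter sets, so the check does not cover the treatment values of the members.

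The members, pathway and marker lists, and the letter split were chosen with earlier results of these data known, so p-values on the split may overstate the evidence. Named genes were members past the threshold in either comparison. In a role group they were otherwise the 3 largest differences and the most abundant member. From each further list, up to 4 genes past the threshold by size were named, or the 2 largest differences. Arnt and genes called by other tools or with the set term were added after their values were seen. The further lists hold 94 matched symbols. A further listed symbol, Ero1a, had no row under that name, while Ero1l, on the same list, was tested. Promoters came from RefSeq by symbol.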

Additional observations from a re-analysis of the deposited data

How the results depend on the processing

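Between the letter sets, the 23 members called lower became 12 with no filter on low values, 21 with no treatment term and 0 with a replicate block by title number, which left 1 residual degree of freedom. Leaving out 1 library gave 7 to 26. In every one of these fits all 23 stayed below 0. Over all genes the 220 calls became 41 with no filter, 465 with edgeR, 688 with DESeq2, 136 with no treatment term, 0 with the replicate block and 18 to 436 without 1 library. For IL-36β, members called were 0 in all fits except 1 of those without 1 library, so 0 to 1 (Gapdh, without untreated replicate 3). The replicate block gave 0 members too. The 23 calls over all genes became 0 with no filter, 37 with edgeR and 260 with DESeq2. They became 13 with the replicate block, 78 with a block by letter and 102 with the set as a term. Without 1 library they were 0 to 8. In the block by letter B0 and E24 are each alone in their letter. The treatment difference there rests on the A and D libraries, with 1 residual degree of freedom.

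The title numbers were not taken to pair libraries: deviations from group means correlated by 0.207, -0.141 and 0.211 for numbers 1 to 3. The pair of number 1, A0 and A24, also shares a letter. D0 and D24, which share a letter but not a number, correlated by 0.275. B0 and A24, which share neither, correlated by 0.388.

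Signs turned for some treatment differences that had not passed. With the block by letter and with the set term, Slc16a3 was 0.16 and 0.18, Egln3 0.51 and 0.53, and Pgk1 0.16 and 0.051. Adm was -0.053 under quantile normalization and -0.0083 at equal totals (TPM). Without 1 library Egln3 ran from -1.22 to 0.15, Pgk1 from -0.48 to 0.0094 and Adm from -0.12 to 0.21. Between the sets Hif1a was 0.030 with no treatment term and 0.32 with the replicate block, and -0.11 to 0.062 without 1 library. Car9 was 0.060 under quantile normalization and 0.16 with the replicate block, and -0.077 to 0.036 without 1 library. The cause was not tested. Precision was limited by 3 libraries a group, by 1 library of one treatment in each set, and, for Aldoc and Eno2, by few reads.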
